A study of Homo sapiens with 6 samples.

Results

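The 33 genes of the ATF4 branch of the integrated stress response were taken by gene name from the count table of 58735 genes, and each name matched 1 row. When amino acids run short or the endoplasmic reticulum or mitochondria are stressed, kinases phosphorylate the translation factor eIF2alpha, most protein synthesis slows and the mRNA of the transcription factor ATF4 is translated more. ATF4 then pairs with C/EBP proteins on composite DNA elements and switches on genes for amino acid synthesis and uptake, for one-carbon metabolism and for feedback control of the response. Because ATF4 is controlled largely at translation, its mRNA level need not follow its activity. Of the 33 genes, 32 passed the filter on low counts and entered the test of 17574 genes. NUPR1, a small stress-induced chromatin protein, did not pass, with at most 5 counts in any library.

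RNA was sequenced from 3 libraries labelled CNOT7 control and 3 labelled CNOT7 knockdown, all of the colorectal cancer line SW480, without treatment, whereas the text of the study names HCT116, another colorectal cancer line, for this experiment. CNOT7 is a catalytic deadenylase subunit of the CCR4-NOT complex, which shortens mRNA tails, and the knockdown was a stable line made with shRNA to find genes downstream of CNOT7. The labels do not say which shRNA each library carries, nor whether the libraries came from separate cultures, so p-values measure the spread between these libraries. Values are CPM (counts scaled to library totals of 1000000 after TMM normalization) and log2 fold changes of knockdown against control, with their standard error (SE), from edgeR's quasi-likelihood test, called at a Benjamini-Hochberg adjusted p under 0.05 over all tested genes. CNOT7 itself was at 169, 191 and 176 CPM in the control libraries and at 43.4, 47.2 and 38.6 CPM in the knockdown libraries, 24.1% of control in the fit. Total counts ranged from 23788451 to 29104872. The epithelial markers EPCAM, KRT8, KRT18 and KRT19 were each above 200 CPM on average in both groups. The epithelial marker CDH1 was less abundant than those markers, at means of 23.6 CPM in control and 33.5 CPM in knockdown libraries. Of the intestinal markers, in the same order, CDX2 was at 41.4 and 42.5 CPM, VIL1 at 19.9 and 32.7 CPM and CDH17 only at 0.566 and 0.915 CPM. Of 11 markers of blood, endothelial and fibroblast cells COL1A1 was the highest, at 8.43 CPM in control and 9.15 CPM in knockdown libraries, while DCN had no counts.

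The ATF4 genes did not move together. With CNOT7 knockdown 9 were higher and 9 were lower, and the median log2 fold change of the 32 tested genes was 0.02, beside 0.0039 over all tested genes. The 18 called genes stand beside a background of 25.2% of all tested genes called, 13.3% higher and 11.9% lower. Calls are made more easily at higher counts, so the share was also taken over the 11132 genes at or above the level of ALDH1L2, the lowest tested member, and was 30.0% there. The groups did not overlap for 18 of the 32 genes, against 38.8% of all tested genes. Requiring a change of at least 0.5 on the log2 scale left 5 higher genes (GDF15, DDIT4, CTH, ALDH1L2 and ASNS) and 3 lower genes (ATF5, PPP1R15A and STC2), beside 9.49% of all tested genes. Of the 18 calls, 12 held in all 6 leave-one-out fits, each made without 1 library, and the other 6 (PHGDH, MTHFD2, CBS, GPT2, SLC7A11 and SLC38A2) did not. DESeq2 called the same 18 genes. Direction also differed within each role, as the plot of fold changes by role shows.

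**Figure D1:**
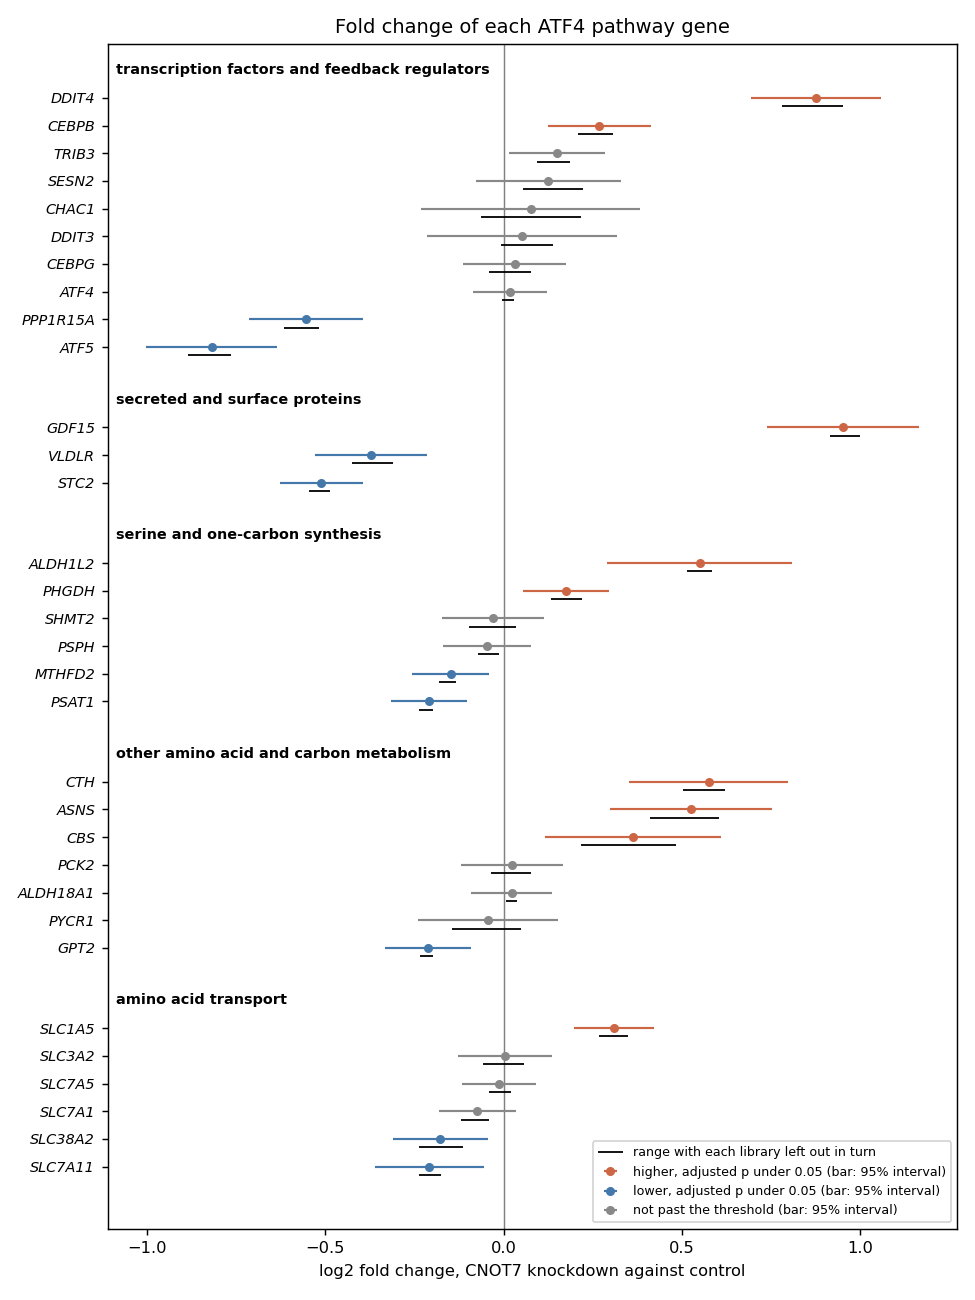
Log2 fold change of CNOT7 knockdown against control (x axis) for the 32 tested ATF4 pathway genes, grouped by role, with 95% intervals as bars and the range over the 6 leave-one-out fits as black lines. Genes higher and lower with knockdown occur in every role, from -0.82 for ATF5 to 0.95 for GDF15, and ATF4 itself sits at 0.02.

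The DNA element through which ATF4 acts, the C/EBP-ATF response element, was searched for as TGATGNAA on both strands of the 250 bases before the transcription start, in promoter sequences from RefSeq (GRCh38.p14) that matched 26 of the 33 genes. It was present in 4 of the 26, against 2.25% of 11361 tested genes with a promoter entry, and its stricter form TGATGCAA, a subset of the same matches, in 3 of the 26, against 0.546%. The element was in 2 of the 8 higher genes with a promoter entry (ASNS and SLC1A5), in 0 of the 7 lower genes and in 2 of the 11 genes not called (CHAC1 and CEBPG), and the difference was not tested. Sequence outside these 250 bases was not searched, so a gene without a match may hold the element elsewhere. The stretches are shown because ASNS and SLC1A5 are the called members with a match, and CHAC1 and CEBPG, added after their values were seen, are matches without a called change. Each is written along the gene's own strand, with the element in capitals, and in CHAC1 the element reads on the opposite strand.
ASNS: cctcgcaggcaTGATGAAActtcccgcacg
SLC1A5: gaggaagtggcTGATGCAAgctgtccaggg
CHAC1: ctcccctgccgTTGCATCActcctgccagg
CEBPG: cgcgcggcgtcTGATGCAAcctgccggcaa

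The ASNS stretch lies at chr7:97872458-97872487 on the reverse strand, with the last base of the element 61 bases before the start. For SLC1A5 it lies at chr19:46784893-46784922 on the reverse strand, 90 bases before the start. The CHAC1 stretch, at chr15:40953251-40953280 on the forward strand, is 202 bases before the start, and that of CEBPG, at chr19:33374060-33374089 on the forward strand, is 35 bases before it. Relative to GENCODE release 29, the elements of ASNS, SLC1A5 and CHAC1 fall within an annotated exon of a transcript of the same gene that starts further upstream, and that of CEBPG falls in no exon. Along their own strands, the deposited annotation begins these genes at 97872542 (ASNS), 46788594 (SLC1A5), 40952962 (CHAC1) and 33373330 (CEBPG). The RefSeq starts used here thus lie inside the annotated genes, furthest inside for SLC1A5. Which start is used in these cells was not tested. A match describes the letters only, and binding was not measured here.

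The transcription factors came apart from each other. ATF4 (chromosome 22, 39519695 to 39522685) was at 300.3, 286 and 298 CPM in the control libraries and at 294, 296 and 305 CPM in the knockdown libraries. The groups overlapped, and the log2 fold change of 0.02 had a 95% interval from -0.09 to 0.12 (adjusted p = 0.834, edgeR). ATF5, its closest relative and also under translational control by eIF2alpha, was at 24.8, 24.7 and 24.2 CPM in control and at 13.9, 12.8 and 15.04 CPM in knockdown libraries. Every knockdown library lay below every control library. ATF5 fell by 0.82 on the log2 scale (SE 0.0866, adjusted p = 2.55e-06), to 56.7% of control in the fit. Of the exonic bases of ATF5, 21.2% lie opposite IL4I1 and NUP62. Since the kit named in the labels is not described as strand-specific, reads there cannot be told apart by strand. Such reads may also have been assigned to none of these genes. NUP62, counted over all its exons, was more abundant and was itself called lower, from a mean of 177 CPM in control to 152 CPM in knockdown libraries (log2 fold change -0.23, adjusted p = 0.00394, edgeR). Its part in the counts of ATF5 was not tested.

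Among the C/EBP partners, CEBPB was at 74.3, 64.8 and 72.6 CPM in control and at 82.9, 80.8 and 91.4 CPM in knockdown libraries. CEBPB rose in all 3 knockdown libraries, by 0.27 on the log2 scale (SE 0.0684, adjusted p = 0.00773, edgeR). The antisense gene CEBPB-AS1, opposite 11.8% of its exonic bases, was at no more than 1.56 CPM in any library. CEBPG overlapped between groups, with a log2 fold change of 0.03 (95% interval -0.11 to 0.17). DDIT3, which encodes the proapoptotic factor CHOP, was at 6.15, 6.02 and 6.30 CPM in control and at 6.71, 5.58 and 6.85 CPM in knockdown libraries. Its log2 fold change of 0.05 had a wide interval, from -0.22 to 0.32. Of the exonic bases of DDIT3, 31.6% lie opposite MARS and MBD6, which are counted at higher levels. Reads there, too, may have been assigned to none of these genes.

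The feedback regulators split as well. PPP1R15A (chromosome 19, 48872392 to 48876057) encodes GADD34, the stress-induced subunit that directs a phosphatase to eIF2alpha and so ends the response. It was at 44.1, 38.2 and 43.5 CPM in control and at 27.4, 29.3 and 29.1 CPM in knockdown libraries, with a wide gap between the groups. PPP1R15A fell by 0.55 on the log2 scale (SE 0.0758, adjusted p = 3.89e-05, edgeR). PPP1R15B, the constitutive counterpart, had a log2 fold change of 0.13 and was not called (adjusted p = 0.107). TRIB3, a pseudokinase that binds ATF4 and restrains it, was at 63.3, 57.4 and 65.4 CPM in control and at 69.4, 68.1 and 68.9 CPM in knockdown libraries. Its groups did not overlap, but the log2 fold change of 0.15 (SE 0.0638) did not pass the threshold over all genes (adjusted p = 0.0992). It did pass after cyclic loess normalization, which removes trends of fold change with abundance, at an adjusted p of 0.0420, and with the replicate number as a block, at 0.0115.

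DDIT4 (chromosome 10, 72273920 to 72276036), whose product REDD1 lowers mTORC1 activity, was at 22.0, 21.1 and 21.1 CPM in control and at 38.8, 34.97 and 44.1 CPM in knockdown libraries. All 3 knockdown libraries were far above the controls. DDIT4 rose by 0.88 on the log2 scale (SE 0.0865, adjusted p = 1.16e-06, edgeR), a 1.84-fold difference. An antisense gene annotated opposite 41.2% of its exonic bases, DDIT4-AS1, had no counts in any library. The annotated span of DDIT4-AS1 lies inside that of DDIT4, and reads shared by both genes may not be assigned to either. The absence of counts therefore cannot show that DDIT4-AS1 is silent. SESN2, another restrainer of mTORC1, was at 19.6, 15.6 and 16.8 CPM in control and at 18.9, 17.8 and 19.98 CPM in knockdown libraries. Those groups overlapped, and its log2 fold change of 0.13 had an interval from -0.08 to 0.33. CHAC1, a glutathione-degrading enzyme often used as a readout of ATF4 activity, was at 7.98, 5.93 and 6.26 CPM in control and at 6.07, 6.89 and 8.33 CPM in knockdown libraries. The spread within each group was larger than the difference, and the log2 fold change was 0.08 with an interval from -0.23 to 0.38.

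**Figure D2:**
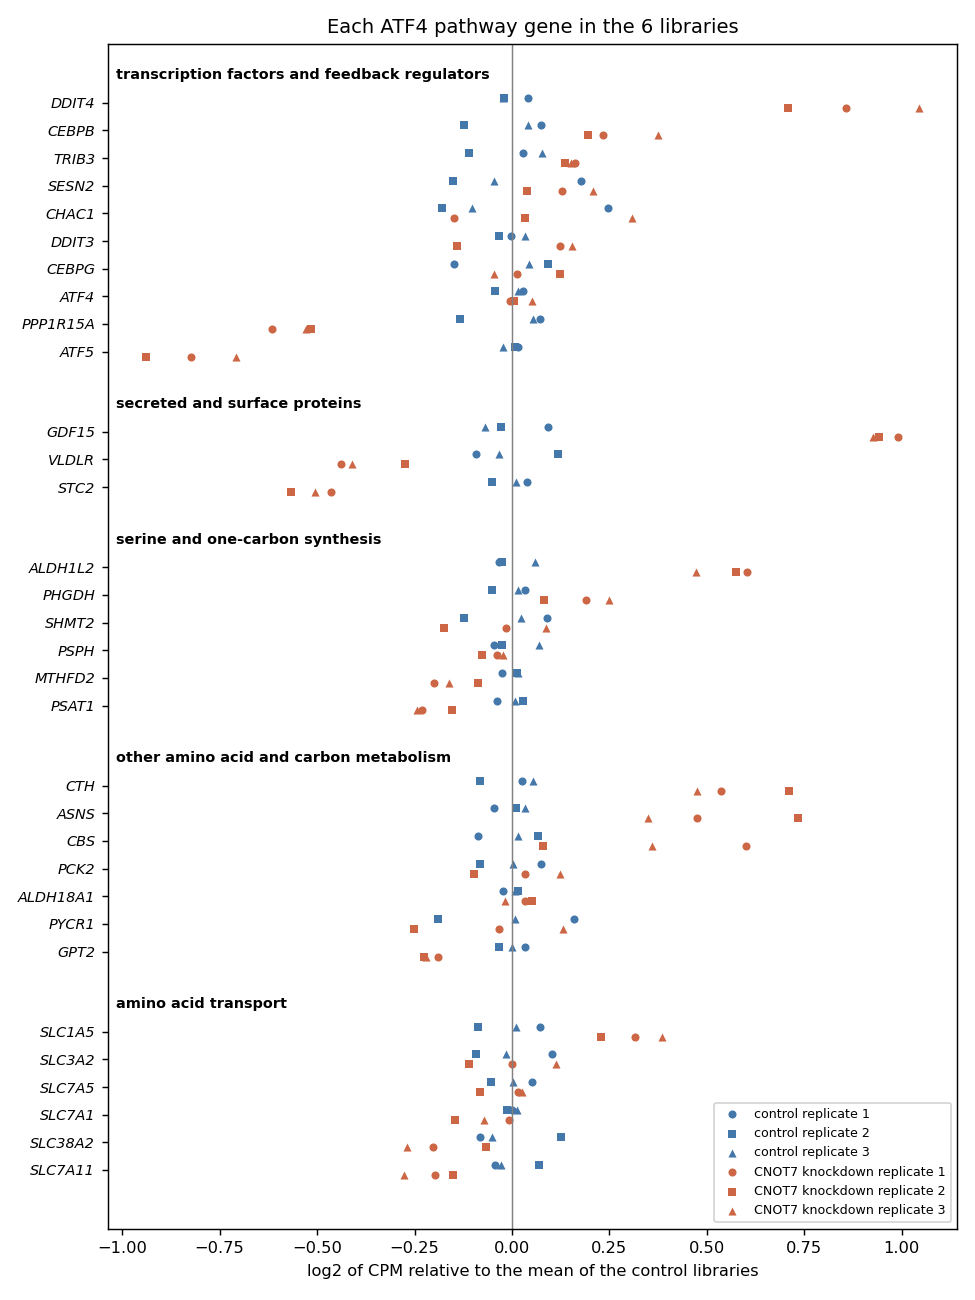
CPM of each tested ATF4 pathway gene in each library, as log2 of the ratio to the mean of the 3 control libraries (x axis), with control libraries in blue and knockdown libraries in orange and 1 marker shape per replicate number. The 3 knockdown libraries of DDIT4, GDF15, ATF5 and PPP1R15A sit well apart from the controls, while those of ATF4, SLC7A5 and SLC3A2 overlap with them.

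The 3 secreted or surface proteins all passed the test, beside 25.2% of all tested genes. GDF15 (chromosome 19, 18374731 to 18389176), a secreted stress hormone, was at 7.90, 7.27 and 7.06 CPM in control and at 14.7, 14.2 and 14.1 CPM in knockdown libraries. It had the largest rise of the 32 tested genes, 0.95 on the log2 scale (SE 0.101, adjusted p = 2.66e-06, edgeR), 1.93-fold. STC2 (chromosome 5, 173314713 to 173329503), a secreted glycoprotein, went the other way. It was at 158, 149 and 155 CPM in control and at 112, 104 and 108 CPM in knockdown libraries, with no overlap. The log2 fold change of STC2 was -0.51 (SE 0.0553, adjusted p = 3.14e-06), or 70.1% of control. VLDLR, a lipoprotein receptor, was at 48.9, 56.6 and 50.9 CPM in control and at 38.5, 43.1 and 39.3 CPM in knockdown libraries. VLDLR was lower in every knockdown library, with a log2 fold change of -0.37 (SE 0.0741, adjusted p = 0.00129).

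In serine and one-carbon synthesis 2 of 6 genes were higher and 2 were lower, beside 13.3% of all tested genes higher and 11.9% lower. PHGDH, PSAT1 and PSPH catalyse the successive steps from a glycolytic intermediate to serine. PHGDH, at the entry, was at 145, 137 and 144 CPM in control and at 162, 150.4 and 169 CPM in knockdown libraries, a log2 fold change of 0.18 (SE 0.0574, adjusted p = 0.0323, edgeR). PSAT1 (chromosome 9, 78297143 to 78330093), the next enzyme, was at 320.0, 335 and 330.4 CPM in control and at 279.7, 295 and 277 CPM in knockdown libraries. It was lower by 0.21 on the log2 scale (SE 0.0504, adjusted p = 0.00540), against the direction of PHGDH. PSPH, the last enzyme, was at 81.2, 82.3 and 87.9 CPM in control and at 81.6, 79.5 and 82.5 CPM in knockdown libraries, and was not called (log2 fold change -0.05, interval -0.17 to 0.08). The call of PHGDH was lost in 5 of the 6 leave-one-out fits, all but that without knockdown replicate 2, with adjusted p-values from 0.0543 without control replicate 1 to 0.150 without knockdown replicate 1, and 0.0954, 0.0968 and 0.147 without control replicates 2 and 3 and knockdown replicate 3. Without a filter on low counts the adjusted p of PHGDH was 0.0716. The call of PSAT1 held in all 6.

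The mitochondrial enzymes downstream of serine showed differences of other sizes. SHMT2, which moves the serine carbon onto folate, overlapped between groups (307, 265 and 293 CPM in control, 285, 255 and 306 CPM in knockdown libraries). MTHFD2, which oxidizes that carbon and is characteristic of proliferating cells, was at 253, 260.3 and 261 CPM in control and at 225, 243 and 231 CPM in knockdown libraries. Its log2 fold change of -0.15 (SE 0.0516, adjusted p = 0.0432, edgeR) passed narrowly. Of the leave-one-out fits, only that without knockdown replicate 2 kept this call. Antisense to 33.2% of its exonic bases lie AC006030.1 and SLC4A5, at no more than 1.14 CPM in any library. The adjusted p of MTHFD2 was 0.0722, 0.0793 and 0.152 without control replicates 1, 2 and 3, and 0.161 and 0.0900 without knockdown replicates 1 and 3. After cyclic loess normalization its log2 fold change was -0.09 and its adjusted p was 0.219. ALDH1L2, which releases the carbon as carbon dioxide in mitochondria, was the lowest tested member, at 4.75, 4.77 and 5.07 CPM in control and at 7.38, 7.25 and 6.75 CPM in knockdown libraries. The knockdown libraries were all higher, by 0.55 on the log2 scale (SE 0.123, adjusted p = 0.00327).

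Among the other enzymes of amino acid and carbon metabolism, 3 of 7 were higher and 1 was lower, beside 13.3% of all tested genes higher and 11.9% lower. ASNS, asparagine synthetase, was at 10.5, 10.96 and 11.1 CPM in control and at 15.1, 18.1 and 13.9 CPM in knockdown libraries, a log2 fold change of 0.53 (SE 0.108, adjusted p = 0.00162, edgeR). It shares 44.6% of its exonic bases with the gene AC079781.5 on the same strand, where reads may not be assigned to either gene, so its level may be understated. AC079781.5 was at 2.14, 2.11 and 2.07 CPM in control and at 1.63, 1.56 and 2.18 CPM in knockdown libraries. With the counts of both added together, an alternative chosen after the data were seen, the log2 fold change was 0.43 (SE 0.0976, adjusted p = 0.00373), and the call held in all 6 leave-one-out fits. The sum holds only reads assigned to 1 of the genes, so it cannot show what reads left unassigned would change.

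CTH and CBS catalyse the transsulfuration steps that turn homocysteine into cysteine. CTH was at 8.76, 8.13 and 8.94 CPM in control and at 12.5, 14.1 and 11.95 CPM in knockdown libraries, with no overlap and a log2 fold change of 0.58 (SE 0.106, adjusted p = 6.47e-04, edgeR). CBS was at 11.8, 13.1 and 12.6 CPM in control and at 19.0, 13.2 and 16.0 CPM in knockdown libraries. Knockdown replicate 2 thus lay next to the controls. The call of CBS, with a log2 fold change of 0.36 (SE 0.117, adjusted p = 0.0306), was lost without control replicate 1 (adjusted p = 0.0856), control replicate 3 (0.0744), knockdown replicate 1 (0.235, with a log2 fold change of 0.22) or knockdown replicate 3 (0.0511), and after cyclic loess normalization (0.0557). CBS has a near-identical annotated copy, CBSL, also on chromosome 21. CBSL held 18, 5 and 12 counts in the control libraries and 14, 87 and 14 counts in knockdown replicates 1, 2 and 3, so that the knockdown replicate with the lowest CBS had the highest CBSL. Added together, again an alternative chosen after the data were seen, the genes were at 12.5, 13.3 and 13.1 CPM in control and at 19.5, 16.4 and 16.5 CPM in knockdown libraries. The sum rose by 0.43 on the log2 scale (SE 0.0966, adjusted p = 0.00344), and its call held in all 6 leave-one-out fits, with adjusted p-values up to 0.0406. Reads that match both copies may not be assigned to either, and the sum does not recover them.

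**Figure D3:**
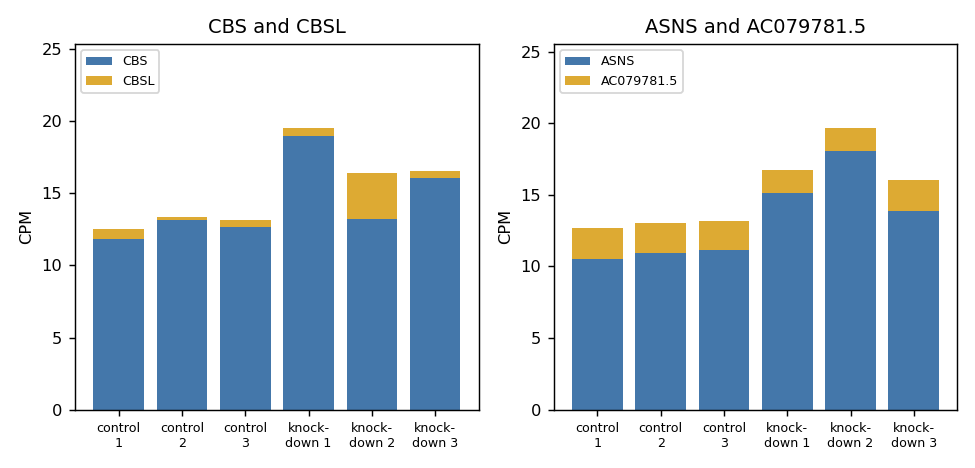
CPM in each of the 6 libraries (bars, from 0) of CBS with its near-identical copy CBSL on the left, and of ASNS with the overlapping gene AC079781.5 on the right. In knockdown replicate 2 CBSL reached 3.15 CPM, against at most 0.7004 CPM in the other libraries, and the summed bars of all 3 knockdown libraries exceed those of the controls in both panels.

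GPT2, the mitochondrial alanine aminotransferase, was at 81.7, 78.0 and 79.9 CPM in control and at 70.0, 68.2 and 68.5 CPM in knockdown libraries. It was lower by 0.21 on the log2 scale (SE 0.0573, adjusted p = 0.0111, edgeR) with no overlap between groups. Leaving out control replicate 1 or 3 took it just past the threshold (adjusted p = 0.0519 and 0.0543). The proline synthesis enzymes ALDH18A1 and PYCR1 had log2 fold changes of 0.02 (interval -0.09 to 0.14) and -0.04 (interval -0.24 to 0.15). PCK2, the mitochondrial enzyme that makes phosphoenolpyruvate, had one of 0.02 (interval -0.12 to 0.17). For these 3 genes the groups overlapped.

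Per gene length, the 2 most abundant members were amino acid transporters. SLC1A5 (chromosome 19, 46774883 to 46788594), a glutamine carrier, was at 1076, 965 and 1032 CPM in control and at 1274, 1200.2 and 1336 CPM in knockdown libraries. SLC1A5 rose by 0.31 on the log2 scale (SE 0.0534, adjusted p = 3.61e-04, edgeR), and was the only transporter of the 6 that was called higher. SLC7A5, the large neutral amino acid exchanger, and SLC3A2, the heavy chain that carries it to the surface, were at control means of 986 and 358 CPM and knockdown means of 977 and 359 CPM. Neither was called, with intervals from -0.12 to 0.09 for SLC7A5 and from -0.13 to 0.14 for SLC3A2. SLC7A1, a cationic amino acid carrier, had a log2 fold change of -0.07 (interval -0.18 to 0.03).

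SLC7A11, the cystine importer that also uses the SLC3A2 heavy chain, was at 32.8, 35.5 and 33.2 CPM in control and at 29.5, 30.4 and 27.9 CPM in knockdown libraries. Its groups did not overlap, and its log2 fold change of -0.21 (SE 0.0731, adjusted p = 0.0454, edgeR) was near the threshold. The adjusted p of SLC7A11 was 0.0686, 0.133 and 0.102 without control replicates 1, 2 and 3, and 0.0976 and 0.131 without knockdown replicates 1 and 3. It was 0.0682 after cyclic loess normalization and 0.0532 without a filter on low counts. SLC38A2, a sodium-coupled neutral amino acid carrier induced by amino acid shortage, was at 384, 443 and 392 CPM in control and at 353, 388 and 337 CPM in knockdown libraries. Knockdown replicate 2 lay above control replicate 1, so the groups overlapped although the log2 fold change of -0.18 passed (SE 0.0635, adjusted p = 0.0492). Without control replicate 2 or 3, or knockdown replicate 1 or 3, the adjusted p of SLC38A2 was 0.200, 0.0721, 0.135 and 0.156, and the log2 fold change was -0.11 without control replicate 2. After cyclic loess normalization it was also -0.11, with an adjusted p of 0.191.

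Levels were compared between genes as RPKM (CPM per kilobase of deposited exonic gene length). In the control libraries SLC1A5 led with 307 ± 16.8 RPKM (SD, n = 3), followed by SLC7A5 with 208 ± 7.59, PSAT1 with 150.1 ± 3.50 and ATF4 with 117 ± 3.04. The lowest tested genes were ALDH1L2 with 0.572 ± 0.0209 RPKM, CBS with 1.84 ± 0.0988 and ASNS with 2.44 ± 0.0678. The levels of CBS and ASNS may be understated, since they share sequence with CBSL and AC079781.5. Levels of members with exonic bases opposite other genes may be affected as well, if reads were counted without strand. Among these members are DDIT4 (41.2% of exonic bases), MTHFD2 (33.2%), DDIT3 (31.6%), SLC1A5 (23.8%) and ATF5 (21.2%). Several neighbours in this order did not separate beyond their SD, such as SLC7A11, GDF15 and CTH at 3.51, 3.55 and 3.57 RPKM. The median control level of the 9 genes called higher was 3.57 RPKM, that of CTH, and of the 9 called lower 13.6 RPKM, that of PPP1R15A, but both sets ranged widely, from ALDH1L2 to SLC1A5 and from SLC7A11 to PSAT1. The exonic length counts all annotated exons of a gene, so that genes with many unused exons are understated.

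**Figure D4:**
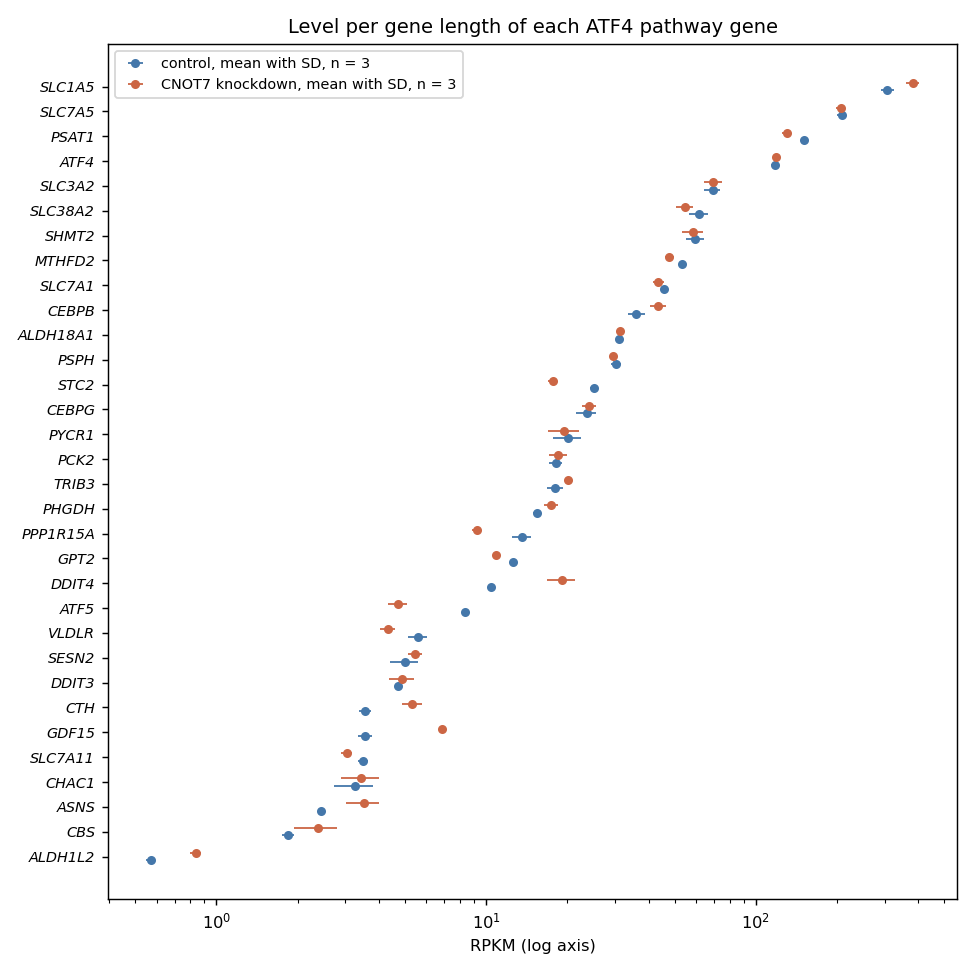
RPKM of the 32 tested ATF4 pathway genes on a log axis, as means with SD of 3 control and 3 knockdown libraries, ordered by the control level. Levels span from 0.572 for ALDH1L2 to 307 for SLC1A5 in the control libraries, and the widest gaps between groups are those of GDF15, DDIT4 and ATF5.

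Upstream of ATF4, none of 10 eIF2alpha kinases and their regulators was called, beside 25.2% of all tested genes, and their log2 fold changes ran from -0.12 to 0.13. EIF2AK3 (PERK, the sensor of the endoplasmic reticulum) had one of 0.11 (interval -0.05 to 0.26, adjusted p = 0.328, edgeR), and EIF2AK4 (GCN2, the sensor of amino acid shortage) one of -0.12 (interval -0.25 to 0.0029, adjusted p = 0.148). At an unadjusted p under 0.05, 1 of the 10 passed (PPP1R15B), and DESeq2 called 0 of them. Of 8 subunits of eIF2 and its exchange factor eIF2B, 1 was called, EIF2B4, at 51.6, 46.1 and 42.8 CPM in control and 38.3, 40.9 and 40.8 CPM in knockdown libraries (log2 fold change -0.23, adjusted p = 0.0354). The call of EIF2B4 held in 4 of the 6 leave-one-out fits, and DESeq2 called 2 of the 8 (EIF2B4 and EIF2B5).

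ATF4 targets outside the 33 genes also went both ways. Of 12 tested, 3 were higher (KLHL24, GADD45A and INHBE) and 2 were lower (SLC6A9 and JDP2), beside 13.3% of all tested genes higher and 11.9% lower. KLHL24, a ubiquitin ligase adaptor, was at 63.9, 77.6 and 65.3 CPM in control and at 91.0, 98.9 and 88.9 CPM in knockdown libraries, a log2 fold change of 0.43 (adjusted p = 3.41e-04, edgeR). GADD45A, a growth arrest gene, had a log2 fold change of 0.41 (adjusted p = 8.07e-04), and SLC6A9, a glycine transporter, one of -0.52 (adjusted p = 8.29e-04). These 3 calls held in all 6 leave-one-out fits, whereas those of INHBE (0.43, adjusted p = 0.0343) and JDP2 (-0.26, adjusted p = 0.0381) held in 3 and 2. ATF3, a further stress factor downstream of ATF4, overlapped between groups at 10.4, 9.20 and 9.38 CPM in control and 9.33, 10.002 and 8.83 CPM in knockdown libraries (interval of the log2 fold change -0.27 to 0.19). FGF21 was too low to be tested, at no more than 10 counts in any library.

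The cytosolic aminoacyl-tRNA synthetases, many of them induced by ATF4, had log2 fold changes between -0.15 and 0.19. Of 20 tested, 2 were higher (QARS with 0.19 and IARS with 0.16) and 1 was lower (MARS with -0.14), beside 25.2% of all tested genes called in either direction. Of these calls, that of QARS held in 5 of the 6 leave-one-out fits and those of IARS and MARS in 2 each. In the XBP1 and ATF6 arms of the unfolded protein response, which share inducers with ATF4, 1 of 14 genes was higher, ERN1 (0.27, adjusted p = 0.00764, edgeR), and 2 were lower, SDF2L1 (-0.39, adjusted p = 0.00658) and HYOU1 (-0.17, adjusted p = 0.0252). HSPA5, the main chaperone of that compartment, had a log2 fold change of -0.04. NRF2, like ATF4, acts on cystine and glutathione metabolism, and of 10 NRF2 targets HMOX1 (0.60, adjusted p = 0.00151) and NQO1 (0.18, adjusted p = 0.0228) were higher and TXNRD1 (-0.20, adjusted p = 0.00665) was lower. The calls of HMOX1, TXNRD1 and SDF2L1 held in all 6 leave-one-out fits, that of ERN1 in 5 and those of NQO1 and HYOU1 in 3 each. The counts in the unfolded protein response and NRF2 lists stand beside 13.3% of all tested genes called higher and 11.9% called lower.

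**Figure D5:**
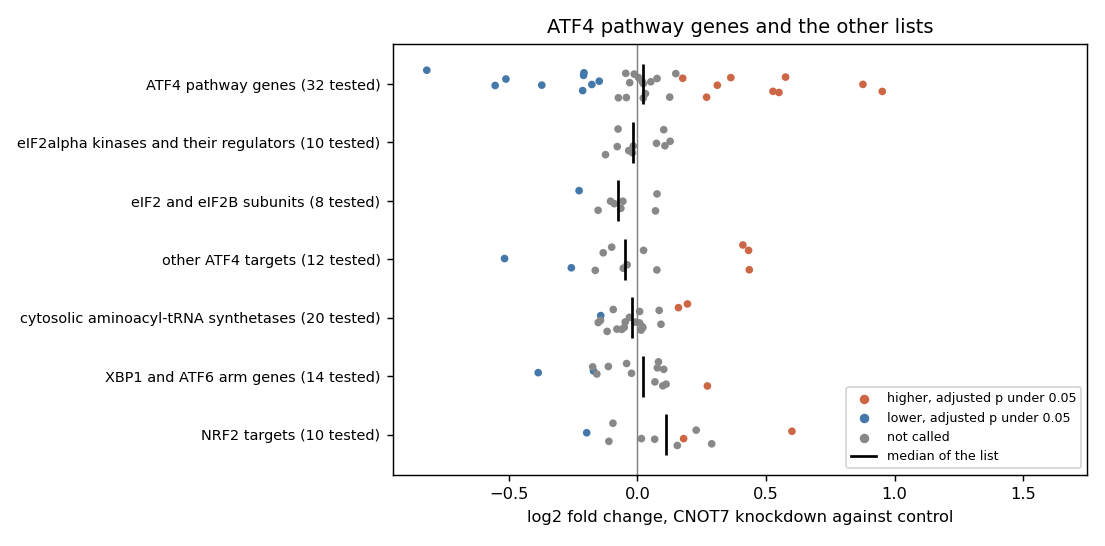
Log2 fold change of CNOT7 knockdown against control (x axis) of each tested gene in the ATF4 list and in 6 other lists, 1 point a gene, coloured by call, with the median of each list as a black line. The medians lie between -0.08 for eIF2 and eIF2B subunits and 0.11 for the NRF2 list, and the ATF4 genes span from -0.82 to 0.95.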

How the data were processed

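Total RNA of SW480 cells was isolated with TRIzol and made into libraries with a NEBNext Ultra RNA kit, per the labels. The deposited table holds raw counts per gene for each of the 6 libraries, without normalization, and per the file headers a gene length in bases. The submitters' processing notes name CASAVA 1.8, fastp, HISAT2 2.0.5, featureCounts 1.5.0-p3 and DESeq2 1.20.0, and the build GRCh38. Counting options and strandedness are not given in the sources used here. Gene lengths of all 33 members equalled the exonic lengths of GENCODE release 29.

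Counts were filtered (filterByExpr), TMM-normalized and fitted by group with edgeR 4.0.16 under R 4.3.3. SE was taken as the log2 fold change (unsigned) over √F, and 95% intervals use the total degrees of freedom of the fit. The code was tested on simulated data. The control columns were matched to samples by title. The members and lists were chosen with earlier results of these data known. Of the other lists, called genes and ATF3, FGF21, EIF2AK3 and EIF2AK4 are named, as are all members, and promoters are shown for called members that hold the element. HSPA5, PPP1R15B, the promoter stretches of CHAC1 and CEBPG (not called), the markers and overlapping genes were added after their values were seen. Alternatives were DESeq2 1.42.0, RLE factors, 2 other filters on counts (no filter, at least 10 in every library), a replicate block, cyclic loess (limma 3.58.1) against a trend with abundance, a minimum fold change and each library left out. Libraries of a group differed by more than counting noise (chi-square per degree of freedom 3.20 to 10.7), so none was a copy. Plots used matplotlib 3.10.9.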

Additional observations from a re-analysis of the deposited data

How the results depend on the processing

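Of 386 values of single members, under 12 alternatives each and with the counts of CBS and ASNS added to those of their overlapping gene, 327 kept their direction and side of the threshold, 31 lost a call, 2 gained one (TRIB3, with cyclic loess and with the replicate block) and 26, all of uncalled members, changed sign near 0. With DESeq2, RLE factors and the stricter filter (10 counts in each library), 9 members were higher and 9 lower, as in the fit reported, and without a filter 8 and 8. With cyclic loess 9 were higher and 6 lower, the median log2 fold change of the members was 0.066, and 4 genes of the other lists were lower in place of 7. Requiring a change of at least 0.5 on the log2 scale, 5 members were higher and 3 lower, beside 1223 and 445 of all tested genes. With each library left out in turn, members called higher numbered 7 to 9 and members called lower 5 to 9, the fewest without control replicate 3, their median ranged from -0.0365 to 0.0426, genes of the other lists called higher from 4 to 8 and lower from 4 to 10, and all lower genes from 1367 to 2219. The log2 fold change of CNOT7 ranged from -2.13 to -1.98 in those fits.

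Values that changed sign were those of SLC3A2 (-0.0084 with DESeq2, -0.0040 with RLE factors and -0.015 without a filter) and, with cyclic loess, DDIT3 (-0.044), CHAC1 (-0.013), SHMT2 (0.0354) and SLC7A5 (0.0653). With a library left out, ranges were -0.0051 to 0.0299 for ATF4, -0.0079 to 0.137 for DDIT3, -0.0402 to 0.0777 for CEBPG, -0.0623 to 0.217 for CHAC1, -0.0979 to 0.0362 for SHMT2, -0.144 to 0.0491 for PYCR1, -0.0359 to 0.0778 for PCK2, -0.0411 to 0.0200 for SLC7A5 and -0.0586 to 0.0561 for SLC3A2. The cause was not tested.

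The libraries of both groups carry the numbers 1 to 3, but same-numbered libraries did not deviate together in every pair (correlations of 0.0228, 0.153 and -0.0153), so the numbers were not taken to pair the libraries. The replicates numbered 2 had the highest correlation of all 9 pairs of a control and a knockdown library. With the replicate block, 3202 genes were higher and 3306 lower, among them 10 and 9 members, and of the other lists 12 and 17. Control replicate 1 correlated best with knockdown replicate 3, at 0.132.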

Other observations

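Replicate 2 stood apart in both groups for many of these genes. In 14 of the 32 tested members it was the lowest of its group in both control and knockdown (CEBPB, DDIT3, GPT2, PCK2, PHGDH, PYCR1, SESN2, SHMT2, SLC1A5, SLC3A2, SLC7A1, SLC7A5, STC2 and TRIB3), against 22.9% of all tested genes, and in 6 it was the highest in both (ALDH18A1, CEBPG, PSAT1, SLC38A2, SLC7A11 and VLDLR), against 24.1%. For SLC3A2, SHMT2 and PYCR1 this spread within groups exceeded the difference between them. The part of culture or library preparation in it was not tested.

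The intestinal marker VIL1, which encodes villin of the brush border, rose with knockdown from 19.9 ± 2.01 to 32.7 ± 3.68 CPM (SD, n = 3), or by 0.72 on the log2 scale (adjusted p = 2.93e-05, edgeR), and the epithelial cadherin CDH1 had one of 0.51, while CDX2 overlapped between groups and KRT8 and KRT19 were lower, by 0.15 and 0.18 on the log2 scale. These markers moved beside the ATF4 genes, and their part in those results was not tested.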
